A study of Oryza sativa with 12 samples.

Results

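Among the long non-coding RNAs (lncRNAs) of rice (Oryza sativa) leaves, 53 had group means that moved in opposite directions under cold in the cultivars Kongyu131 and Dongnong422. In 20 of them the cold mean was above the control mean in Kongyu131 and below it in Dongnong422, and these are called the Kongyu131-gain set. In the other 33 the cold mean was below the control mean in Kongyu131 and above it in Dongnong422, and these are called the Dongnong422-gain set. The members were selected on FPKM, in which the fragments of a transcript are divided by its length and by the size of the library, so that levels can be compared between transcripts. A member is the sole listed transcript of its locus and has a mean of at least 0.5 FPKM over the 6 libraries of each cultivar. Its log2 difference of group means, cold minus control with 0.1 FPKM added to each mean, is at least 0.5 in one cultivar and at most -0.5 in the other. Of 1485 listed transcripts, 828 are alone in their locus, and 499 of those met the level condition and are called eligible.

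The 12 libraries form 4 groups of 3, which are Kongyu131 control, Kongyu131 cold, Dongnong422 control and Dongnong422 cold, all from leaves of booting plants, whose panicle has not yet emerged from its sheath. Plants grew outdoors, and the cold groups were kept at 17 °C for 13 days with 16 h of light and 8 h of dark in an incubator. That protocol is written on the control labels too, so where and at which temperature the controls stood is not known, and incubator and temperature cannot be told apart. Each cultivar stands for its genotype alone, a leaf was taken per bucket, and nothing says which libraries came from separate plants, so the p-values below rest on a spread between libraries that may be technical only.

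LncRNAs are transcripts without a long open reading frame. Some act on nearby genes by recruiting chromatin or transcription factors, and others act as decoys for proteins or microRNAs. Long intergenic non-coding RNAs (lincRNAs) lie between protein-coding genes, whereas antisense lncRNAs are read from the strand opposite another gene and can affect its transcription. In Arabidopsis, the antisense RNAs named COOLAIR at the flowering repressor gene FLC rise in the cold. In rice, chilling at the booting stage is known for disturbing pollen development, while leaves of the same stage supply the panicle. The transcripts here carry an identifier, a locus number and a class only, so no host gene, position, sequence or function can be given for a member, and a marker check of the leaf label was not possible with these tables. In whole leaves, fewer cells of a type and less RNA per cell cannot be told apart.

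The number of mapped fragments behind each value is unknown. Between 1361 and 1414 of the transcripts were above 0 in a library, and 0 pairs of libraries were identical. A few libraries weighed more than others on the choice of members, which was repeated without each library in turn. Without Dongnong422 cold replicate 2, the library in which the dominant lncRNA LNC_000712 stood at 1170000 FPKM against 260633 to 614704 in the other 11, 12 of the 53 members were lost, 10 of them from the Dongnong422-gain set; the part of that lncRNA in the loss was not tested. Leaving out Kongyu131 cold replicate 3 kept 47 members and added 21 others, which took the Dongnong422-gain set from 33 to 49. Leaving out Kongyu131 control replicate 1 took the Kongyu131-gain set from 20 to 28. Of the 53 members, 18 met the rule without any single library, 7 in the Kongyu131-gain and 11 in the Dongnong422-gain set, and 11 failed it without exactly 1 library.

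Among the 499 eligible lncRNAs, 72 had a log2 change of -0.5 or lower in both cultivars and 42 had one of 0.5 or higher in both, against 33 (6.61%) and 20 (4.01%) for the opposite combinations, while 121 stayed under 0.5 in both. Singly, 101 reached 0.5 and 177 reached -0.5 in Kongyu131, and 124 and 143 did so in Dongnong422. The eligible lncRNAs had a median log2 change of -0.20 in Kongyu131 and -0.08 in Dongnong422.

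**Figure D1:**
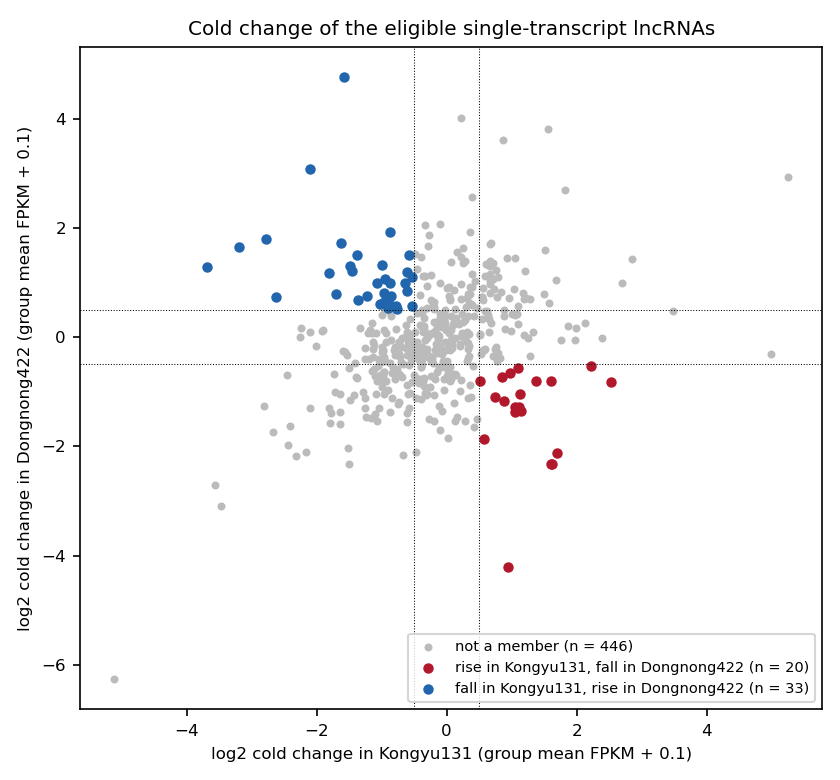
Log2 cold change of the group mean FPKM + 0.1 in Kongyu131 (horizontal) and Dongnong422 (vertical) for the 499 eligible single-transcript lncRNAs, with dotted lines at 0.5 and -0.5. The 20 red points are the Kongyu131-gain set and the 33 blue points the Dongnong422-gain set; the 446 grey points are the rest, with 72 in the lower left corner.

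In the Kongyu131-gain set, the median log2 change was 1.11 in Kongyu131 (range 0.52 to 2.53) and -1.13 in Dongnong422 (range -4.20 to -0.53). In the Dongnong422-gain set it was -0.99 in Kongyu131 and 0.99 in Dongnong422 (range 0.52 to 4.76). The changes in Kongyu131 ran from -0.53 to -3.20 there, apart from LNC_000735, which was listed at 0 in all 3 cold libraries. A change of at least 1 in both cultivars was reached by 8 of 20 and 10 of 33 members. Since these values chose the members, they are given as a description without a test.

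The libraries behind these means overlapped in most members. Cold and control libraries did not overlap in Kongyu131 in 9 of the 20 members of the Kongyu131-gain set, where 8.12% of all 1441 lncRNAs tested lay wholly above their controls. In Dongnong422 they did not overlap in 9 of the 20, where 17.4% of all lay wholly below. For the Dongnong422-gain set the counts were 16 of 33 in Kongyu131, beside 16.4% of all wholly below, and 15 of 33 in Dongnong422, beside 12.1% of all wholly above. The rule used the same values, so nothing is read from these shares. In both cultivars at once the libraries were apart in 12 members, 5 and 7 in the respective sets, and in neither cultivar in 16. No share of all lncRNAs is given for both cultivars at once, so nothing is read from these counts either.

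**Figure D2:**
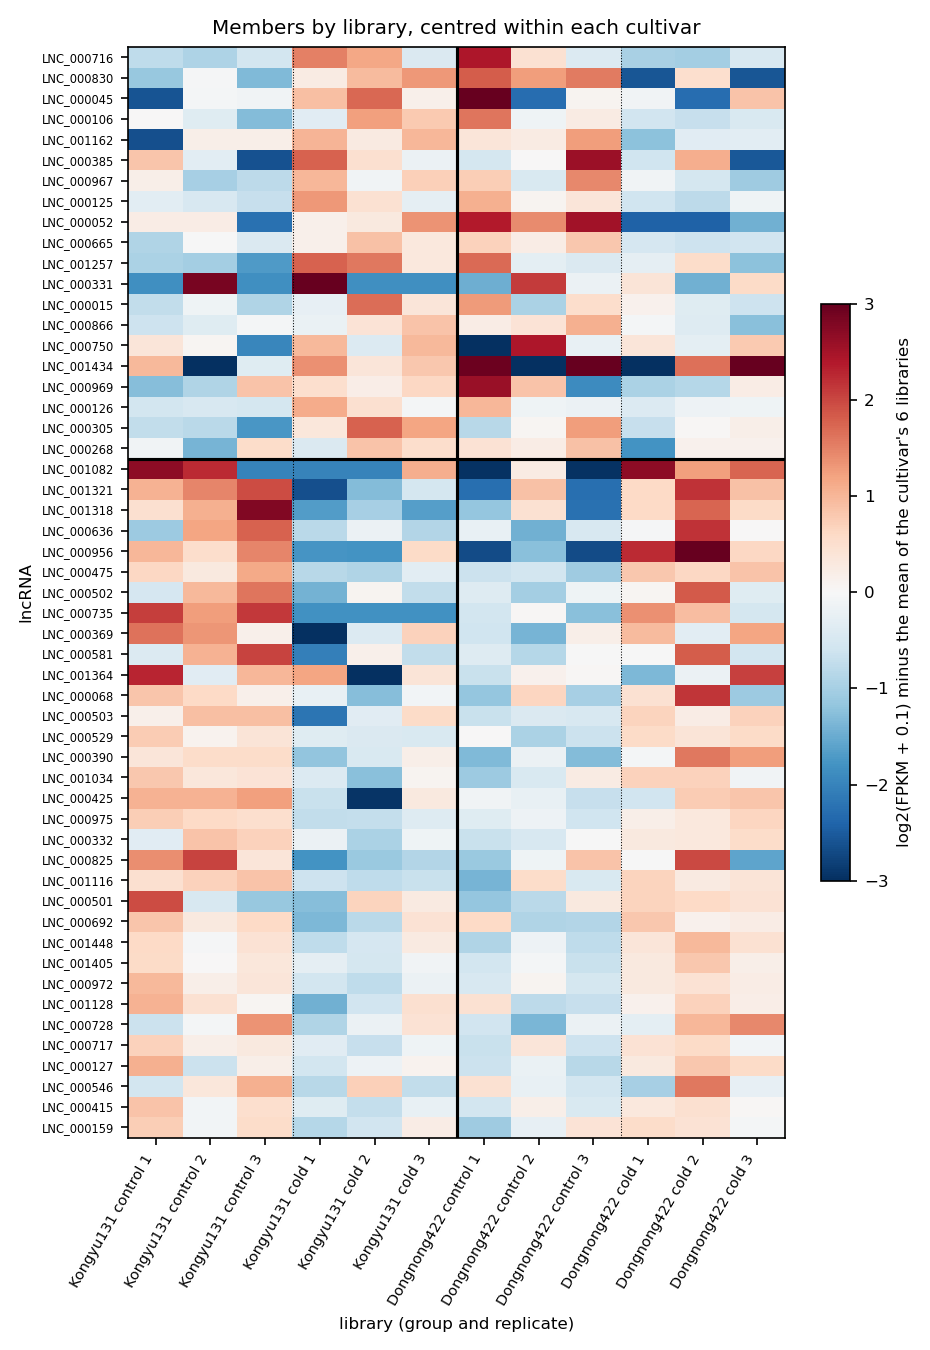
Each row is 1 of the 53 members and each column 1 of the 12 libraries, coloured by log2(FPKM + 0.1) minus the mean of the cultivar's 6 libraries and capped at 3 and -3. The 20 rows above the thick line are the Kongyu131-gain set, ordered by the smaller of the 2 cold changes, and the 33 rows below it the Dongnong422-gain set in the same order; single dark cells, such as Dongnong422 control 1 in LNC_000045, mark a library far from the others of its group.

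The Kongyu131-gain set held 5 members whose libraries were apart in both cultivars. The antisense lncRNA LNC_000716 (locus XLOC_026998) stood at 8.38, 7.42 and 9.65 FPKM in control and 40.7, 31.9 and 10.6 FPKM in cold Kongyu131 leaves. In Dongnong422 it stood at 47.6, 12.1 and 6.65 FPKM in control and 4.47, 4.31 and 6.29 FPKM in cold leaves. All cold libraries were above all controls in Kongyu131 and below all controls in Dongnong422, although Kongyu131 cold replicate 3 and Dongnong422 control replicate 3 came within 1 FPKM of the other treatment. Its mean went up 3.24-fold and down 4.34-fold on the scale with 0.1 FPKM added.

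The lincRNA LNC_000830 (XLOC_031095) had 0.305, 0.771 and 0.256 FPKM in control and 0.955, 1.64 and 2.1 FPKM in cold Kongyu131 leaves. Its Dongnong422 libraries had 1.98, 1.32 and 1.64 FPKM in control and 0, 0.742 and 0 FPKM in the cold. Kongyu131 in the cold and Dongnong422 in control thus stood close together (means of 1.57 ± 0.578 and 1.65 ± 0.330 FPKM, SD, n = 3 each), and the other groups were lower.

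LNC_000125 (XLOC_006391), an antisense lncRNA, averaged 2.77 ± 0.372 FPKM in control Kongyu131 leaves and 6.19 ± 3.37 FPKM in the cold (SD, n = 3 each), with cold libraries at 9.86, 5.48 and 3.23 FPKM. Its Dongnong422 levels were 4.98, 2.49 and 3.04 FPKM in control and 1.52, 1.31 and 2.14 FPKM in the cold. The next locus number belongs to another antisense member, LNC_000126 (XLOC_006392), named after its values were seen. That lncRNA had the same order of cold libraries in Kongyu131, 12.1, 7.69 and 5.28 FPKM against 3.74, 3.94 and 3.80 FPKM in control. In Dongnong422 its control libraries at 7.69, 3.42 and 3.32 FPKM overlapped the cold ones at 2.82, 3.40 and 3.45 FPKM. Locus numbers are not positions, and whether these transcripts lie side by side was not analysed here.

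The remaining pair of members with libraries apart in both cultivars were low antisense lncRNAs. LNC_000665 (XLOC_024781) had 0.406, 0.840 and 0.606 FPKM in control and 0.954, 1.64 and 1.08 FPKM in cold Kongyu131 leaves, against 0.948, 0.657 and 1.03 FPKM in control and 0.354, 0.322 and 0.333 FPKM in cold Dongnong422 leaves. LNC_001162 (XLOC_044542) had 0, 0.603 and 0.610 FPKM in control and 1.18, 0.656 and 1.15 FPKM in cold Kongyu131 leaves, against 1.49, 1.37 and 2.86 and then 0.429, 0.869 and 0.897 FPKM in Dongnong422. Both met the rule without any single library, as did LNC_000716, LNC_000830 and LNC_000125.

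Of the members whose libraries overlapped in at least 1 cultivar, 4 are described next. LNC_000052 (antisense, XLOC_003075) had the lowest Dongnong422 cold level of the set, at 0, 0 and 0.0978 FPKM after 2.71, 1.33 and 2.98 FPKM in control. Its Kongyu131 libraries overlapped, at 1.18, 1.19 and 0.134 FPKM in control and 1.13, 1.25 and 2.73 FPKM in the cold, and it left the set without replicate 3 of either Kongyu131 group. The lincRNA LNC_000106 (XLOC_005893) stood at 4.26, 1.22 and 1.59 FPKM in control and 0.862, 0.783 and 0.938 FPKM in cold Dongnong422 leaves, with overlap in Kongyu131 (1.18, 0.884 and 0.418 FPKM against 0.897, 2.86 and 2.08 FPKM).

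The lincRNA LNC_000045 (XLOC_002787) rested on 1 library in Dongnong422. Its control libraries were at 6.41, 0 and 0.419 FPKM and its cold libraries at 0.352, 0 and 0.780 FPKM, and without control replicate 1 it was no member. The lincRNA LNC_000385 (XLOC_015769) likewise had 0.310, 0.490 and 3.37 FPKM in control Dongnong422 leaves, where replicate 3 alone was above the highest cold library (0.290, 1.14 and 0 FPKM). Its Kongyu131 libraries overlapped as well, at 1.00, 0.396 and 0 FPKM in control and 2.01, 0.764 and 0.447 FPKM in the cold.

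The 2 most abundant members of the Kongyu131-gain set overlapped in both cultivars. The lincRNA LNC_001434 (XLOC_056464) stood at 257, 14.5 and 102 FPKM in control and 340, 168 and 227 FPKM in cold Kongyu131 leaves, and at 67.3, 0 and 180 FPKM and then 0, 27.4 and 130 FPKM in Dongnong422. Dongnong422 libraries of the same group thus ran from listed at 0 to the level of Kongyu131, and an exact 0 can be a failed estimate. The antisense lncRNA LNC_000750 (XLOC_028097) ranged from 4.19 to 21.2 FPKM in control and from 12.4 to 32.6 FPKM in cold Kongyu131 leaves. In Dongnong422 its controls were at 2.06, 96.8 and 15.4 FPKM, with the cold libraries at 23.0, 14.7 and 30.8 FPKM between them. Control replicate 2 alone set the Dongnong422 control mean above the cold mean. LNC_000750 was no member without that library, nor without Kongyu131 control replicate 3. LNC_001434 failed the rule on 4 of the 12 omissions.

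Near the threshold, the antisense lncRNA LNC_000268 (XLOC_012674) was the weakest member of the set, with log2 changes of 0.52 and -0.81. The lincRNA LNC_000480 (XLOC_018042), with 0.46 and -1.51, was the nearest outside it. Its group means, 314 and 433 FPKM for Kongyu131 (control, then cold) and 578 and 203 FPKM for Dongnong422, were higher than those of every member. Of the 20 members, 4 had a smaller change under 0.6, and 4 other eligible lncRNAs lay between 0.4 and 0.5.

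**Figure D3:**
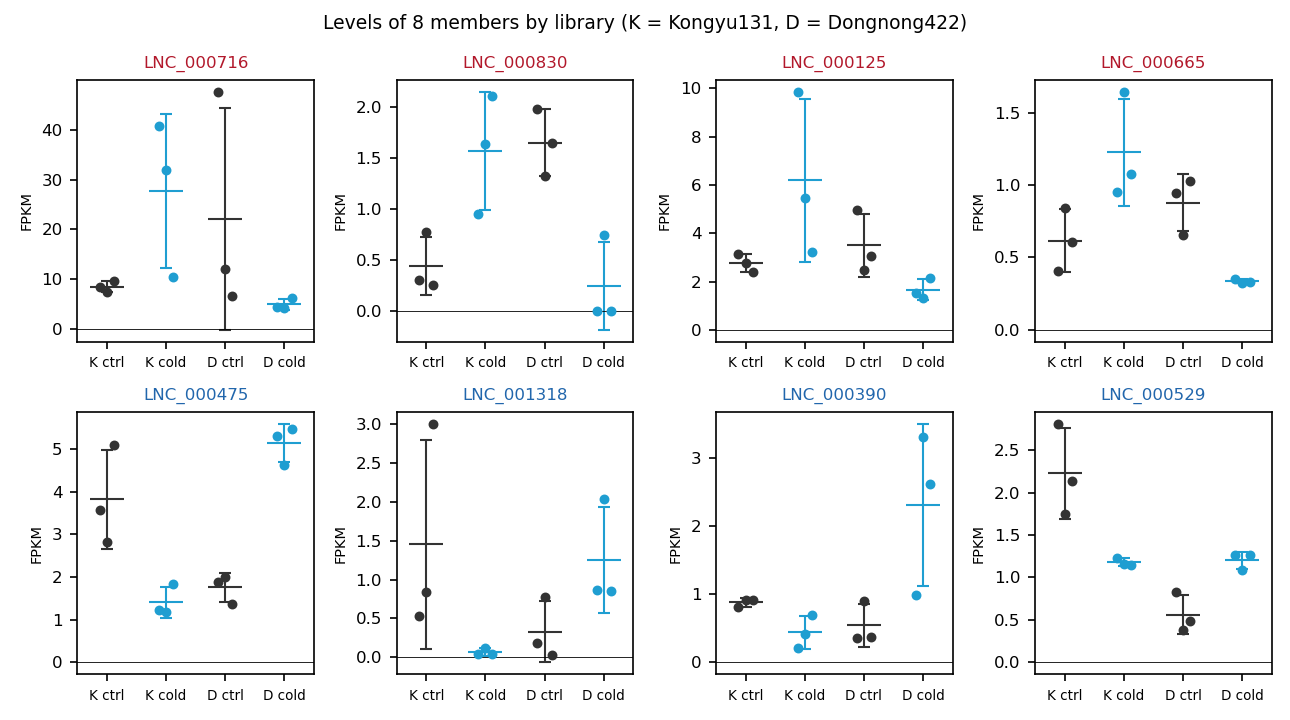
FPKM of 8 members whose cold and control libraries do not overlap in either cultivar, 4 of the Kongyu131-gain set (upper row) and 4 of the Dongnong422-gain set (lower row). Points are the 3 libraries of each group, bars the mean ± SD, black for control and blue for cold; in LNC_000475 the Kongyu131 control and Dongnong422 cold libraries lie between 2.82 and 5.49 FPKM and the other 6 at or below 2.00 FPKM.

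The Dongnong422-gain set held 7 members whose libraries were apart in both cultivars, 5 of them lincRNAs. LNC_000475 (XLOC_018030) stood at 3.58, 2.82 and 5.10 FPKM in control and 1.23, 1.17 and 1.83 FPKM in cold Kongyu131 leaves, and at 1.89, 2.00 and 1.38 FPKM in control and 5.31, 4.65 and 5.49 FPKM in cold Dongnong422 leaves. Its fold changes on the scale with 0.1 FPKM added were 2.61 down and 2.83 up. The control level of each cultivar lay near the cold level of the other. LNC_000975 (XLOC_035698) had 1.67, 1.5 and 1.40 FPKM in control and 0.533, 0.538 and 0.700 FPKM in cold Kongyu131 leaves. In Dongnong422 its controls, at 1.23, 1.45 and 1.03 FPKM, overlapped the Kongyu131 controls, and its cold libraries at 1.86, 2.04 and 2.58 FPKM were above every other library.

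LNC_000972 (XLOC_035693), 5 locus numbers before LNC_000975, also had libraries apart in both cultivars. It had 5.23, 2.94 and 3.36 FPKM in control and 1.74, 1.5 and 2.28 FPKM in cold Kongyu131 leaves, and 2.12, 3.17 and 2.05 FPKM in control and 3.69, 4.10 and 3.5 FPKM in cold Dongnong422 leaves. Close locus numbers also joined LNC_001318 (XLOC_052268) and LNC_001321 (XLOC_052271), lincRNAs with some of the deepest declines in cold Kongyu131 leaves. LNC_001318 stood at 0.531, 0.838 and 2.99 FPKM in control and 0.0402, 0.124 and 0.0439 FPKM in the cold. Its mean was 9.18-fold lower on the scale with 0.1 FPKM added, which understates the change at such low levels. In Dongnong422 it stood at 0.186, 0.774 and 0.0357 FPKM in control and 0.867, 2.03 and 0.854 FPKM in the cold.

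LNC_001321 had 1.17, 1.61 and 2.28 FPKM in control and 0, 0.151 and 0.326 FPKM in cold Kongyu131 leaves. Its Dongnong422 libraries had 0, 0.785 and 0 FPKM in control and 0.630, 2.06 and 0.782 FPKM in the cold, where control replicate 2 lay above cold replicates 1 and 3. Among the members there were 7 pairs of neighbours in the order of locus numbers with numbers at most 40 apart, 5 of the same set and 2 of opposite sets. No count over the eligible lncRNAs stands beside these pairs, so nothing is read from them.

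Another 3 members had libraries apart in both cultivars. The lincRNA LNC_000390 (XLOC_015926) had 0.803, 0.915 and 0.915 FPKM in control and 0.209, 0.412 and 0.689 FPKM in cold Kongyu131 leaves, and 0.352, 0.900 and 0.361 FPKM and then 0.987, 3.30 and 2.62 FPKM in Dongnong422. The antisense lncRNA LNC_001405 (XLOC_054950) had a Kongyu131 mean of 4.12 ± 0.811 FPKM in control and of 2.66 ± 0.386 FPKM with cold, and a Dongnong422 mean of 3.26 ± 0.773 FPKM that became 5.97 ± 1.53 FPKM (SD over 3 libraries). The antisense lncRNA LNC_000529 (XLOC_020078) went from 2.81, 1.75 and 2.14 FPKM to 1.23, 1.16 and 1.14 FPKM in Kongyu131 and from 0.824, 0.374 and 0.486 FPKM to 1.26, 1.09 and 1.26 FPKM in Dongnong422. The cold levels of the cultivars in LNC_000529 lay close together (1.18 ± 0.0457 and 1.21 ± 0.101 FPKM, SD over 3 libraries), while all Kongyu131 controls stood above all Dongnong422 controls. Of the 7, LNC_001318 was no member without Kongyu131 control replicate 3, LNC_001405 without Kongyu131 control replicate 1 and LNC_000972 without Dongnong422 control replicate 3, while the other 4 met the rule without any single library.

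The largest changes of the set were in lincRNAs at or near 0 in some groups. LNC_000956 (XLOC_035220) was at 0, 0.166 and 0 FPKM in control and 2.90, 8.53 and 0.888 FPKM in cold Dongnong422 leaves, while in Kongyu131 it stood at 2.41, 1.72 and 3.40 FPKM and then 0.271, 0.263 and 1.79 FPKM. LNC_001082 (XLOC_041235) was at 0, 0.817 and 0 FPKM in control and 4.90, 1.71 and 2.5 FPKM in cold Dongnong422 leaves, and at 2.46, 1.80 and 0 FPKM and then 0, 0 and 0.759 FPKM in Kongyu131. LNC_000735 (XLOC_027944) was at 1.38, 0.738 and 1.44 FPKM in control Kongyu131 leaves and listed at 0 in the 3 cold libraries, against 0.576, 0.900 and 0.311 and then 2.43, 1.77 and 0.587 FPKM in Dongnong422. LNC_000956 and LNC_001082 met the rule without any single library, whereas LNC_000735 failed it without Kongyu131 control replicate 1 or 3. A value of 0 occurred in at least 1 library in 14 of the 53 members (7 in each set), against 38 of the 499 eligible lncRNAs.

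Dongnong422 cold replicate 2 stood far above the rest in 2 of the more abundant members. The lincRNA LNC_000502 (XLOC_019326), the most abundant of the set, stood at 26.3, 90.4 and 19.6 FPKM in cold and 19.4, 12.5 and 23.2 FPKM in control Dongnong422 leaves, and it was no member without that replicate. In Kongyu131 it stood at 12.3, 34.3 and 53.1 FPKM in control and 6.45, 18.4 and 10.4 FPKM in the cold. The lincRNA LNC_000636 (XLOC_023866) was likewise highest there, with 7.02, 32.5 and 7.26 FPKM in cold and 6.2, 2.60 and 5.16 FPKM in control Dongnong422 leaves, and 3.45, 17.2 and 26.0 and then 4.22, 6.65 and 4.01 FPKM in Kongyu131. It met the rule without any single library.

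Over the 33 members, that replicate was the highest of the 3 Dongnong422 cold libraries in 17, and over the 446 eligible lncRNAs that are no members it was so in 167 (37.4%). Kongyu131 cold replicate 3 was the highest of its group in 23 of the 33, against 238 of the 446 (53.4%). Whether the scale of a library has a part in these patterns was addressed only by rescaling. With median-ratio scaling, whose factors ran from 0.964 (Kongyu131 cold replicate 2) to 1.36 (Kongyu131 control replicate 1), 27 of the 33 and 17 of the 20 members remained. With those that joined, the sets then held 31 and 19.

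Of the other members named, the lincRNA LNC_000503 (XLOC_019335) had 4.05, 6.95 and 6.90 FPKM in control and 0.718, 2.89 and 5.5 FPKM in cold Kongyu131 leaves, and 6.34, 7.47 and 7.14 and then 16.1, 11.7 and 16.3 FPKM in Dongnong422. Its Dongnong422 groups were apart, while Kongyu131 cold replicate 3 overlapped the controls. The lincRNA LNC_000127 (XLOC_006482) was apart in Dongnong422 too (7.09, 9.75 and 6.22 against 13.6, 19.5 and 16.6 FPKM) and overlapped in Kongyu131, where control replicate 1 at 18.5 FPKM stood above the rest. At the threshold, the lincRNA LNC_000159 (XLOC_008039) had log2 changes of -0.77 and 0.52, and the lincRNA LNC_000206 (XLOC_010212), just outside, had -0.94 and 0.49. Under 0.6 in the smaller change were 8 of the 33 members, and 6 eligible lncRNAs lay between 0.4 and 0.5.

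The Kongyu131-gain set held 10 lincRNAs and 10 antisense lncRNAs, and the Dongnong422-gain set 27 lincRNAs and 6 antisense lncRNAs (81.8% lincRNAs), where 62.1% of the eligible lncRNAs are lincRNAs. Put as shares of a class, 8.71% of the 310 eligible lincRNAs and 3.17% of the 189 eligible antisense lncRNAs were in the Dongnong422-gain set, and 3.23% and 5.29% in the Kongyu131-gain set. These shares were not tested. The median level over the 12 libraries was 1.37 and 1.56 FPKM in the respective sets and 1.85 FPKM in the eligible lncRNAs, and 7 members averaged 10 FPKM or more. The spread between replicates had a median residual SD of 0.82 on the log2(FPKM + 0.1) scale (0.88 and 0.67 in the respective sets) against 0.50 in the eligible lncRNAs. It ran from 0.20 in LNC_000975 to 4.15 in LNC_001434.

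The log2 difference of group means, Dongnong422 minus Kongyu131, had a median of 1.38 in control and -1.27 in cold leaves in the Kongyu131-gain set. In the Dongnong422-gain set it was -0.57 in control and 1.53 in cold leaves. In 12 of 20 and 17 of 33 members the cultivars stood at least 0.5 apart in both treatments with opposite order. In 4 and 14 members they were within 0.5 in control and apart in the cold, and in 2 of each set they were apart in control and within 0.5 in the cold, among them LNC_000529. These differences come from the means that chose the members and were not tested.

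**Figure D4:**
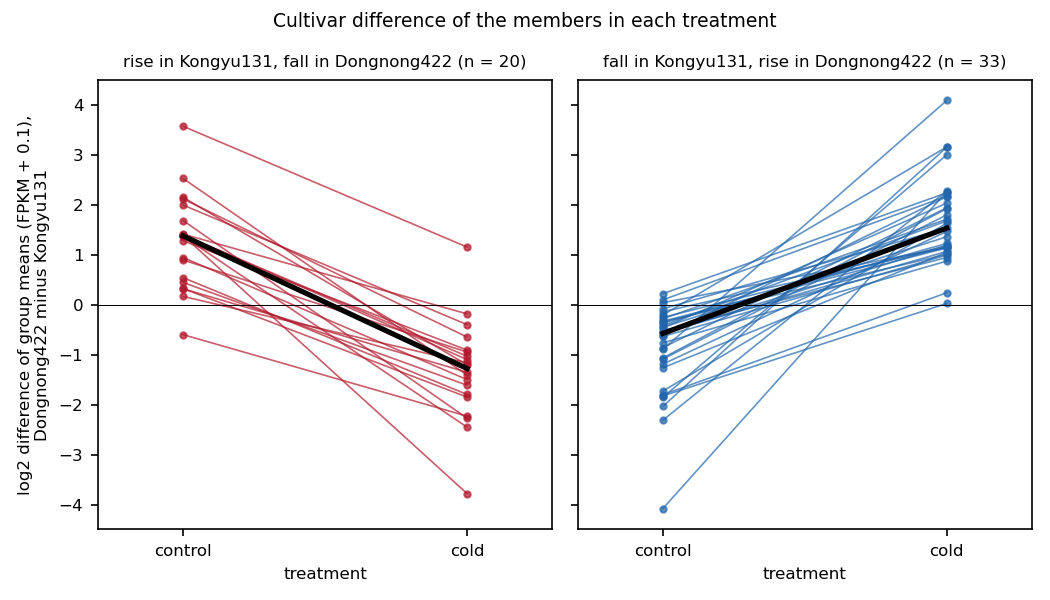
Log2 difference of the group means (FPKM + 0.1), Dongnong422 minus Kongyu131, in control and cold leaves, with 1 line per member and the median in black. The median goes from 1.38 to -1.27 in the 20 members on the left and from -0.57 to 1.53 in the 33 on the right; LNC_000956 starts lowest on the right, at -4.07.

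The rule did not select directly on the difference between the cultivars averaged over both treatments, although that difference comes from the same libraries. The rule used logs of group means and the test uses means of logs, so the test is not wholly apart from the selection. The cultivar difference was tested in all 1441 lncRNAs with a mean of at least 0.1 FPKM. All 53 members passed that filter. By limma on log2(FPKM + 0.1) with Benjamini-Hochberg adjustment over the 1441, 5 of the 53 members were called. This was 9.43%, close to the 7.21% of the 499 eligible lncRNAs, of which 3.21% were higher in Dongnong422 and 4.01% higher in Kongyu131, and under the 17.9% of all lncRNAs tested, which were 9.37% higher in Dongnong422 and 8.54% higher in Kongyu131. The level asked of each cultivar removes lncRNAs nearly absent from one, so the eligible share is the closer background. By set, 1 of 20 members of the Kongyu131-gain set (5%) and 4 of 33 of the Dongnong422-gain set (12.1%) were called.

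The called members were 4 higher in Dongnong422 and 1 higher in Kongyu131. In LNC_000975 the Dongnong422 level exceeded that of Kongyu131 by a log2 difference of 0.71 (SE 0.168, adjusted p = 0.0103 by limma), with 6-library means of 1.70 and 1.06 FPKM. In LNC_000529 the log2 difference was -0.91 (SE 0.203, adjusted p = 0.00715 by limma), with means of 0.883 and 1.71 FPKM, and the gap of the group means lay in the control leaves. Both calls held under all 20 alternatives and omissions tried.

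LNC_000503 was higher in Dongnong422 by 1.44 (SE 0.389, limma adjusted p = 0.0231), with 6-library means of 10.8 and 4.50 FPKM, and 15 of 20 alternatives and omissions kept its call. Its call ended on leaving out Kongyu131 control 1, Dongnong422 control 2, Dongnong422 cold 1 or Dongnong422 cold 3, and with quantile normalization (adjusted p from 0.0512 to 0.102). LNC_000735 was called higher in Dongnong422 (adjusted p = 0.0101 by limma), although its control level was higher in Kongyu131. The call rests on the cold Kongyu131 libraries at 0, so no size is given, and it was lost with a pseudocount of 1 FPKM (adjusted p = 0.150). The lincRNA LNC_000331 (XLOC_014282), of the Kongyu131-gain set, had 0, 2.47 and 0 and then 8.16, 0 and 0 FPKM in Kongyu131. In Dongnong422 it had 2.06, 25.4 and 5.13 and then 7.65, 2.1 and 8.79 FPKM. LNC_000331 was no member without Kongyu131 cold 1, Dongnong422 control 2 or Dongnong422 cold 2. Its cultivar effect was 4.05 (SE 1.24, limma adjusted p = 0.0425), a size set by the pseudocount, since 4 of its 6 Kongyu131 libraries are listed at 0. It was 2.00 with 1 FPKM and 6.24 with 0.01 FPKM (adjusted p = 0.0658 and 0.0524 by limma), and 13 of 20 alternatives and omissions ended the call, including the omission of Kongyu131 control 1 or 3, of Kongyu131 cold 2 or 3 and of any Dongnong422 library but control replicate 1 (adjusted p up to 0.106). No called member had all 6 libraries of one cultivar above all 6 of the other.

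The cultivar effect was above 0 in 27 of 33 members of the Dongnong422-gain set, with a median of 0.47, and in 7 of 20 members of the Kongyu131-gain set, with a median of -0.39. Over the eligible lncRNAs the median was 0.04 and 53.1% were above 0. The median of the Dongnong422-gain set stayed between 0.30 and 0.54 over the 20 alternatives and omissions, and that of the Kongyu131-gain set between -0.53 and -0.05. The members were not chosen anew in these refits. On means over the 6 libraries of a cultivar, before taking logs, the latter set had a median of 0.01 with 10 members on each side, and the former kept 0.39 with 28 of 33 above 0. No test was made over the members, and why the medians differ between the scales was not tested.

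**Figure D5:**
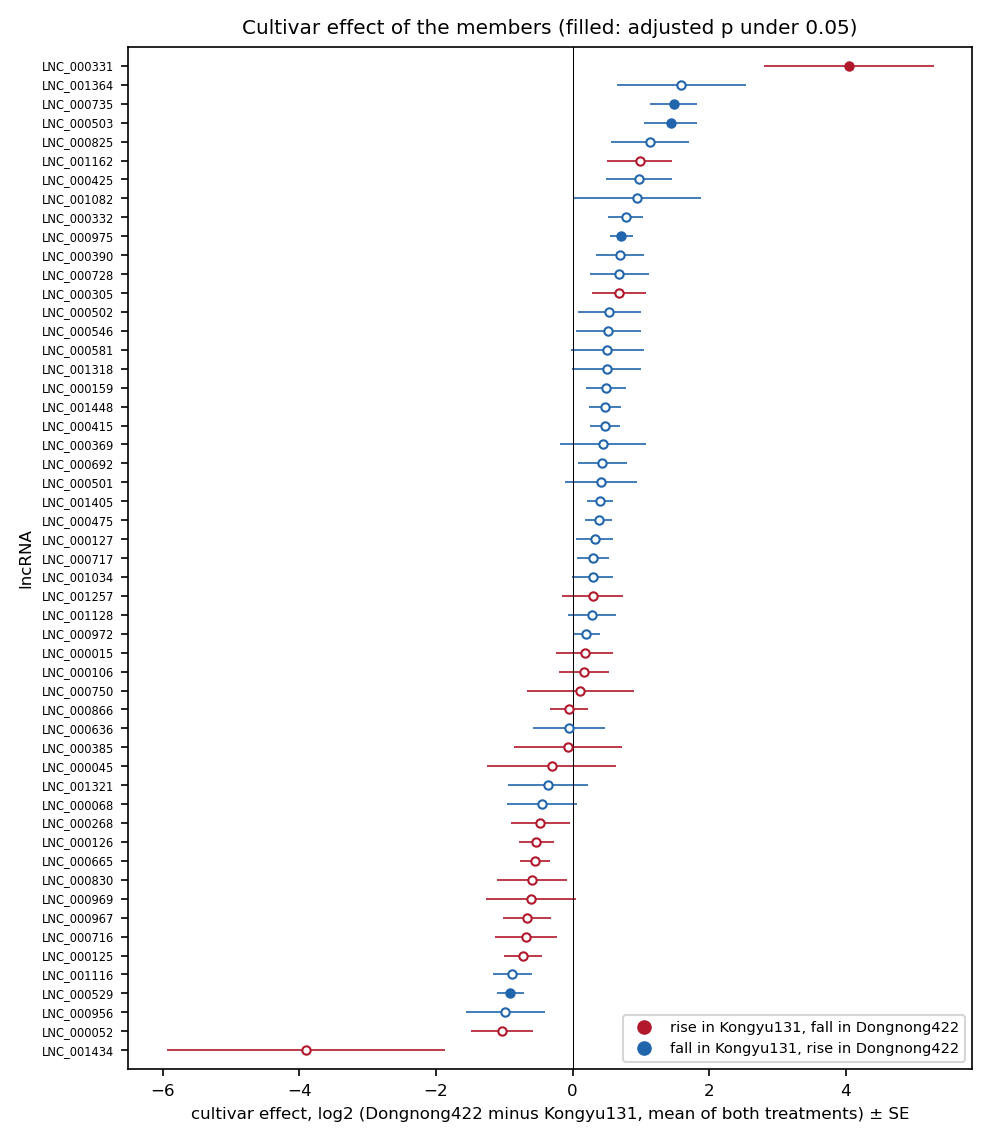
Cultivar effect of each of the 53 members, as the log2 difference Dongnong422 minus Kongyu131 averaged over control and cold, ± SE from limma, red for the Kongyu131-gain and blue for the Dongnong422-gain set. The 5 filled points had an adjusted p under 0.05; LNC_000331 at 4.05 and LNC_001434 at -3.91 have the widest errors, and both have libraries listed at 0.

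The difference of cold effects between the cultivars, fitted for all 1441 lncRNAs, was called in 5 of the 53 members, which were LNC_000475, LNC_000735, LNC_000975, LNC_000052 and LNC_000956. LNC_000052 is of the Kongyu131-gain set and the other 4 are of the Dongnong422-gain set. The background was 0.416% (6 of 1441). The rule selected on this difference, so nothing is read from the count. Each omission of a library moved this count by over 1.5 times. On leaving out Kongyu131 cold 1, or Dongnong422 control 3, limma called 0 members, with 35 and 40 at an unadjusted p under 0.05. On leaving out Kongyu131 cold 3, or Dongnong422 control 2, it called 8, and 2 or 3 on leaving out any of the other 8 libraries.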

How the data were processed

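The values are FPKM, which the authors deposited per library. TopHat2 2.0.9 and Cufflinks 2.1.1 were used, per the submitters' processing notes, while for their settings, the genome build and the lncRNA classing the sources used here state nothing. Libraries were made from RNA depleted of ribosomal RNA with a directional kit, per the labels' protocols. Only sole transcripts of a locus are members; Cufflinks divides fragments among the transcripts of a locus. FPKM values are shares of a library, so a few abundant RNAs can shift the rest, and they keep no depth here, so no counting interval is given. Identifiers matched the supplied gene table in 0 cases and 0 symbols are listed.

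The rule for members was applied to the values as deposited. For the tests, log2(FPKM + 0.1) of the 1441 lncRNAs with a mean of at least 0.1 FPKM (44 removed) was fitted with limma 3.58.1 in R 4.3.3, with 4 group means over 12 libraries and a mean-variance trend. Calls were made at a two-sided Benjamini-Hochberg adjusted p under 0.05. The procedure was tested on simulated data. Fold changes on this scale understate changes of low transcripts. The members and lists were chosen with earlier results of these data known. Named in each set are the 6 members with the largest smaller change, those with libraries apart in both cultivars, the 2 highest, those at the threshold and, over both sets, the 4 largest called cultivar effects and those called for the difference of cold effects. Alternatives were other pseudocounts, scalings, filters, levels and thresholds, group medians, a mean of logs, no trend, a replicate block and leaving out each library.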

Additional observations from a re-analysis of the deposited data

Results flagged for a closer look

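A closer look is due for 15 members, 5 because limma's difference of cold effects (Dongnong422 minus Kongyu131) had an adjusted p under 0.05 over 1441 lncRNAs, and 10 because every cold library lay above all controls in one cultivar and below all in the other. The rule had selected all of them on this difference, so neither the test nor the separation of the libraries supports it, and the values are a description. By the test, the differences on the log2(FPKM + 0.1) scale were 2.88 (SE 0.395, adjusted p = 0.0169) for LNC_000475, 1.99 (SE 0.337, adjusted p = 0.0275) for LNC_000975, -5.41 (SE 0.914, adjusted p = 0.0275) for LNC_000052 and 6.40 (SE 1.15, adjusted p = 0.0395) for LNC_000956. For LNC_000735 the fitted value was 4.82 (adjusted p = 0.0169). Where libraries are listed at 0 these sizes are set by the pseudocount and are no bounds. With 1 and 0.01 FPKM in place of 0.1 FPKM, the value was -2.23 and -8.07 for LNC_000052, 3.03 and 8.98 for LNC_000956, and 1.76 and 8.15 for LNC_000735, against 2.15 and 2.98 for LNC_000475. LNC_000956 passed with neither (adjusted p = 0.0575 and 0.0568 by limma), and LNC_000052 did not pass with 0.01 FPKM (adjusted p = 0.0568 by limma).

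With 0.1 FPKM added, the difference was not called in the 10 members whose libraries lay apart in opposite directions. With 1 FPKM it was called in LNC_000830 and LNC_000529 (adjusted p = 0.0284 and 0.0486 by limma). Several of the 10, such as LNC_000830 (-1.95 with 1 FPKM and -7.17 with 0.01 FPKM), also hold values at or near 0. In the Kongyu131-gain set, the differences were -3.14 for LNC_000716, -4.76 for LNC_000830, -2.79 for LNC_001162, -2.00 for LNC_000125 and -2.04 for LNC_000665. Their limma adjusted p-values were 0.163, 0.0579, 0.206, 0.133 and 0.0579, in the same order. In the Dongnong422-gain set, the differences were 4.84 for LNC_001318, 1.88 for LNC_000529, 2.83 for LNC_000390, 1.45 for LNC_001405 and 1.63 for LNC_000972. Their limma adjusted p-values were 0.0579, 0.0579, 0.0921, 0.110 and 0.0921, in the same order.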

How the results depend on the processing

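The Kongyu131-gain set (20 members) and the Dongnong422-gain set (33 members) became 12 and 15 with a pseudocount of 1 FPKM. They became 13 and 21 with a minimum of 1 FPKM per cultivar, and 8 and 10 with a change of 1 in both cultivars. With no minimum level the counts became 39 and 48. A lower or higher minimum adds or removes low lncRNAs by construction. A larger pseudocount shrinks every log2 change and a higher change threshold is stricter, so both can only remove members. The cause of the shifts that follow was not tested. Without single libraries the counts ran from 17 to 28 and from 24 to 49. With group medians 12 of 20 and 24 of 33 members were kept, and with quantile normalization 17 and 28. Others joined, so the sets then held 18 and 36 with group medians and 20 and 30 with quantile normalization. The median log2 cold change of all lncRNAs tested was -0.09 in Kongyu131 and -0.15 in Dongnong422 as deposited, and 0 in both with quantile normalization.

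For the cultivar effect, the 258 calls over all lncRNAs became 135 with a mean of at least 1 FPKM, where fewer were tested, and the 36 over the eligible lncRNAs became 56 with quantile normalization, the cause of which was not tested. The 5 members called were 3 to 6 without single libraries, 3 of them without Kongyu131 control replicate 1, Dongnong422 cold replicate 1 or Dongnong422 cold replicate 3. For the difference of cold effects, the 5 members called became 3 with a pseudocount of 0.01 FPKM and 0 to 8 without single libraries. With a pseudocount of 1 FPKM, 7 were called, 4 of them among the 5. Same-numbered libraries of different groups did not visibly deviate together (18 pairs, r from -0.11 to 0.08), and differently numbered ones had r from -0.12 to 0.11. The labels do not say whether the numbers pair the samples, and these correlations cannot settle it. With the replicate block, 2 of the 5 calls for the difference of cold effects were left. Over the refits of the cultivar effect of named members, 552 kept the side of the threshold, 19 ended a call, 3 made one and 0 reversed one. The unknown depth limits all low values.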

Other observations

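Opposite cold changes of the same size also occurred among transcripts of loci with several transcripts, which the rule leaves out. Of 176 such transcripts that met the level condition, 7 had a cold mean above control in Kongyu131 and below it in Dongnong422 (3.98%). The reverse held for 4 (2.27%), and the 11 transcripts lay in 9 loci. The opposite changes also held for the summed FPKM of the locus in 1 of the 9 loci, XLOC_022181, which holds 3 of the 11 transcripts. The antisense lncRNA LNC_000576, 1 of its 4 transcripts, had group means of 1.90 (control) and 2.86 FPKM (cold) for Kongyu131 and of 4.08 and 1.75 FPKM for Dongnong422, and log2 changes of 0.78 and -0.74 for its locus. It was chosen after its values were seen.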
